A study of Rattus norvegicus with 63 samples.

Results

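The genes of oxidative phosphorylation were followed in the livers of rats given 1 of 15 compounds. They were chosen by name from the array's annotation, as every gene whose only symbol began with Nduf, Uqcr, Atp5 or Cox4 to Cox8, or was Sdha, Sdhb, Sdhc, Sdhd or Cycs. The rule gave 84 of the 10411 genes that had a probe set with a single symbol, and each gene was read from its strongest such probe set, judged by the mean over the 63 arrays. They belonged to complex I (39 genes), complex II (4), complex III (7), complex IV (18) and complex V (16), while Cycs, which encodes cytochrome c, had no probe set with a single symbol and was not analysed here. The rule used names alone and no measured value.

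RNA was measured on Affymetrix RAE230A arrays, 1 per animal, in male Wistar Hanover rats that were 8 to 10 weeks old when they were assigned to groups and were dosed by gastric gavage, and the values are log2 expression levels made by the authors with RMA, which corrects background, normalizes between arrays and summarizes probes. Each group had 3 animals. For the compounds they were picked from a larger dosed group among the rats whose livers showed changes on histopathology, so that these replicates are different rats that were not drawn at random. The study asked how short dosing with carcinogens of different classes is reflected in the liver. Compounds were classed as NGC (carcinogens without genotoxicity), GC (carcinogens with genotoxicity) or NC (no carcinogens), and the class of some was left undefined.

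The compounds set against vehicle set MC1 (methylcellulose in the labels, day 14) were Acetamide (AA, NGC, 3000 mg/kg/d, 14 days), Dehydroepiandrosterone (DHEA, NGC, 600 mg/kg/d, 14 days), Methylcarbamate (Mcarb, NGC, 400 mg/kg/d, 14 days), Methapyrilene HCl (MPy, NGC, 60 mg/kg/d, 7 days), Thioacetamid as the labels spell it (TAA, undefined, 19.2 mg/kg/d, 7 days) and Wy-14643 (Wy, undefined, 60 mg/kg/d, 3 days). Set MC5 (methylcellulose, day 14) served Diethylstilbestrol (DES, NGC, 10 mg/kg/d, 3 days), Ethionine (ETH, NGC, 200 mg/kg/d, 14 days) and Piperonylbutoxide (PBO, NGC, 1200 mg/kg/d, 3 days). Set MC2 (methylcellulose, day 14) served Cefuroxime (CFX, NC, 250 mg/kg/d, 14 days) and Nifedipine (Nif, NC, 3 mg/kg/d, 14 days), and set MC6 (methylcellulose, day 14) served Phenobarbital sodium (PB, NGC, 14 days, no dose in the labels). In corn oil, C.I Direct Black (CIDB, GC, 146 mg/kg/d) and Dimethylnitrosamine (DMN, GC, 4 mg/kg/d) were given for 7 days and set against CO3 (day 7), and Cyproterone acetate (CPA, undefined, 100 mg/kg/d) was given for 14 days and set against CO4 (day 14). For DES, MPy, PBO, TAA and Wy the labels give the vehicle animals a longer dosing than the treated animals, while the study's methods call the controls time-matched. As far as the labels hold, compound and duration cannot be told apart. All animals of a group were of 1 strain and sex, and no group carried a genetic change.

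Oxidative phosphorylation takes place in the inner mitochondrial membrane. Complexes I (NADH dehydrogenase) and II (succinate dehydrogenase) pass electrons to ubiquinone, complex III passes them on to cytochrome c, and complex IV (cytochrome c oxidase) hands them to oxygen, while the protons pumped by complexes I, III and IV drive ATP synthesis in complex V. The genes followed here are nuclear ones, and the mitochondrially encoded subunits of the same complexes do not carry these names. Hepatocytes are rich in mitochondria, and many nuclear genes of the chain are known to carry sites for the transcription factors NRF1 and GABPA (NRF2) near their start.

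RefSeq promoters (build GRCr8, 250 bases before the start) were found for 76 of the 84 genes. The letters of a GABPA site, CCGGAAG on either strand, were present in 20 of these promoters (26.3%), against 7.74% of all 27457 promoters in the table. The NRF1 core GCGCATG was present in 12 (15.8%, against 3.45%), the nuclear receptor half-site AGGTCA in 15 (19.7%, against 13.7%) and the YY1 core AAGATGG in 4 (5.26%, against 4.63%). The median GC content was 55.6% in these promoters and 52.0% in all promoters, and 35 of the 76 held at least 1 of the searched motifs. The 5 promoters below show what such windows hold, namely those of the genes with the largest differences with DHEA and Wy (Ndufa3) and with ETH (Ndufaf4), of Ndufs1 and Cox8a from complexes I and IV, and of Atp5me, which matched 3 of the motifs. They are read 5′ to 3′ along the gene, with capitals marking matches to these motifs in either orientation.
Ndufa3 (chr1:74515559-74515808, minus strand): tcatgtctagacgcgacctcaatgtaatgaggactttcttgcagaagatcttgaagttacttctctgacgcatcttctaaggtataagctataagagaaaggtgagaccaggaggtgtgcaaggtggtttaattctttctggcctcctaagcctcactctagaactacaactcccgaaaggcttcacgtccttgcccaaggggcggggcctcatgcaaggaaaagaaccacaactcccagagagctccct
Ndufs1 (chr9:72073606-72073855, minus strand): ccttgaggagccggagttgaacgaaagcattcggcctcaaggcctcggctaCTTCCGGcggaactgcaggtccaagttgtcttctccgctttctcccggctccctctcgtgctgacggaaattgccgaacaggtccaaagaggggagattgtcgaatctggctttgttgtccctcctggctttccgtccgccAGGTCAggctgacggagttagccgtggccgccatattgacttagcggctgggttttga
Cox8a (chr1:213833624-213833873, minus strand): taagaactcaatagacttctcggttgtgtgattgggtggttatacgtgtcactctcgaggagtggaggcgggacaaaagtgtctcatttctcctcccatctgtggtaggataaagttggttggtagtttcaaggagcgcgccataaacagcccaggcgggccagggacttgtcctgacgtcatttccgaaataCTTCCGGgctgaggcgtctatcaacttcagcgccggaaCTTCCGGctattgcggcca
Ndufaf4 (chr5:43401545-43401794, plus strand): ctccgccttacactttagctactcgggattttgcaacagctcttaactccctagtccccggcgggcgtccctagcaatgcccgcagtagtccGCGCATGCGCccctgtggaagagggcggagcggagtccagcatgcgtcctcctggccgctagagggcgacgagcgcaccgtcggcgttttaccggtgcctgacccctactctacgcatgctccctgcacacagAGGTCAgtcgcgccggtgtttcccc
Atp5me (chr14:1464610-1464859, plus strand): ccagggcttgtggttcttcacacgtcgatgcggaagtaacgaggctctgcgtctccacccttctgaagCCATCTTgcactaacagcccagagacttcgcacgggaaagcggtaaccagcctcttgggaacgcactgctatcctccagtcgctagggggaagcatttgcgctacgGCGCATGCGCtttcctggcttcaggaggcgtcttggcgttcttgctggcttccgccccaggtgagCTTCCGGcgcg
The promoter of Ndufa3, the gene with the largest difference in DHEA and Wy, held none of the searched letters. The promoter of Ndufs1 held a GABPA match and a half-site, and that of Cox8a 2 GABPA matches. That of Ndufaf4 held overlapping NRF1 matches (the stretch GCGCATGCGC is its own reverse complement) and a half-site. That of Atp5me held matches to GABPA, NRF1 and YY1. Such matches describe the letters and not the use of a site.

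Hepatocyte markers were strong in every array, with albumin (Alb) between 14.89 and 15.11 log2 in all 63 arrays and Ttr between 13.93 and 14.37. Array medians ran from 7.421 to 7.51, and each array's mean correlation with the others of its group, across probe sets, was 0.9886 to 0.9956. A pair of vehicle arrays of set MC6 stood apart. In MC6 animal 3, 10 of the 13 measured skeletal muscle and heart markers were above every other array, for example Acta1 at 10.38, against at most 4.90 elsewhere, and Ckm at 9.61, against at most 6.50. In MC6 animal 1 the mean over the 84 genes was the highest of all 63 arrays, at 11.039. MC6 is the control of PB alone among the compounds, and the PB results are given below with and without these animals. In bulk liver RNA, more RNA per cell and more cells of a type cannot be told apart.

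A gene was called when its adjusted p fell under 0.05 in limma's moderated test, fitted to all 63 arrays with Benjamini-Hochberg adjustment over 15866 probe sets. Given as shares of all 10411 genes, such calls are the background against which the 84 genes are read. Under this rule 3 compounds stood out. In livers of DHEA-dosed rats 33 of the 84 genes rose (39.3%, background 9.78%) and 0 fell (background 9.35%). With ETH 36 rose (42.9%, background 13.6%) and 4 fell (background 13.1%), and with Wy 21 rose (25.0%, background 7.67%) and 0 fell (background 7.38%). The changes were small in size. The median log2 difference over the 84 genes was 0.21 with DHEA, 0.20 with ETH and 0.12 with Wy, against 0.01, -0.03 and 0.00 over all genes, and no gene of the 84 changed beyond the 2.5-fold used as a criterion in the study with any compound. Among the 1042 genes with the strongest signal, 21.5% were called higher and 22.1% lower with DHEA, 19.6% and 27.5% with ETH, and 15.3% and 24.6% with Wy.

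**Figure D1:**
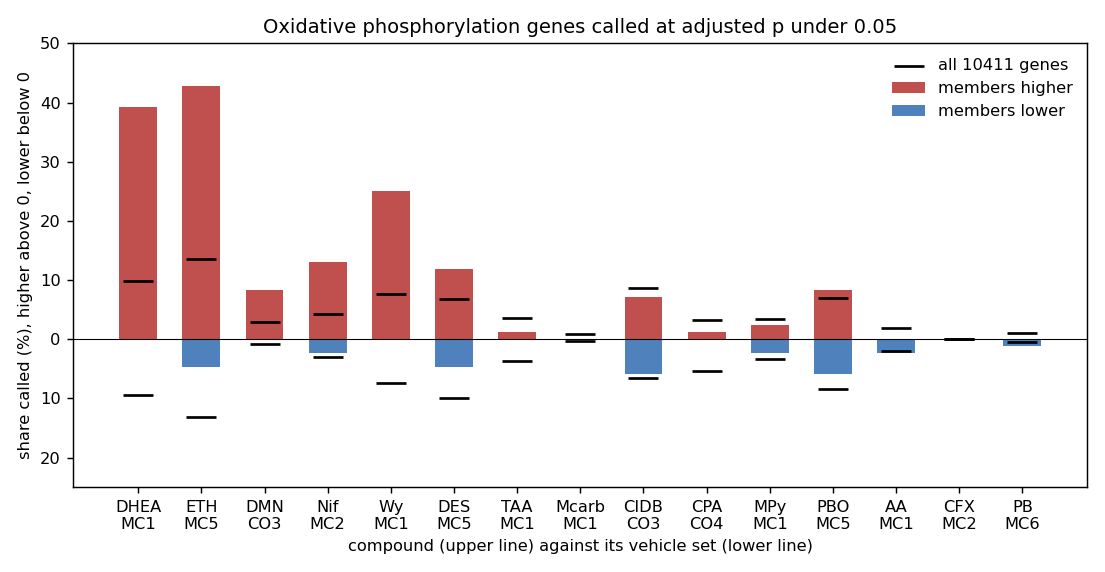
Share of the 84 genes called higher (red, above 0) or lower (blue, below 0) in percent for each compound against its vehicle set, with black lines for the same shares of all 10411 genes. ETH, DHEA and Wy have the tallest red bars, at 42.9, 39.3 and 25.0%, and DHEA and Wy have no blue bar.

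The other compounds gave fewer calls. With Nif 11 genes rose (background 4.26%) and 2 fell (2.95%), with DES 10 rose (6.79%) and 4 fell (9.99%), with DMN 7 rose (2.88%) and 0 fell (0.855%), with PBO 7 rose (7.04%) and 5 fell (8.44%), and with CIDB 6 rose (8.63%) and 5 fell (6.62%). With MPy 2 rose (3.49%) and 2 fell (3.31%), with TAA 1 rose (3.6%) and 0 fell (3.68%), with CPA 1 rose (3.2%) and 0 fell (5.34%), with AA 0 rose (1.82%) and 2 fell (1.95%), and with PB 0 rose (0.999%) and 1 fell (0.509%). With Mcarb 0 rose (0.932%) and 0 fell (0.25%), and with CFX 0 rose (0%) and 0 fell (0%). At an unadjusted p under 0.05 the same limma fit gave 7 genes with Mcarb and 1 with CFX. The share of all genes under this unadjusted threshold was not counted. For CIDB, PBO, MPy, TAA, CPA, AA, Mcarb, PB and CFX the counts in both directions lay near or below the background, and they say nothing about the 84 genes as a group.

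**Figure D2:**
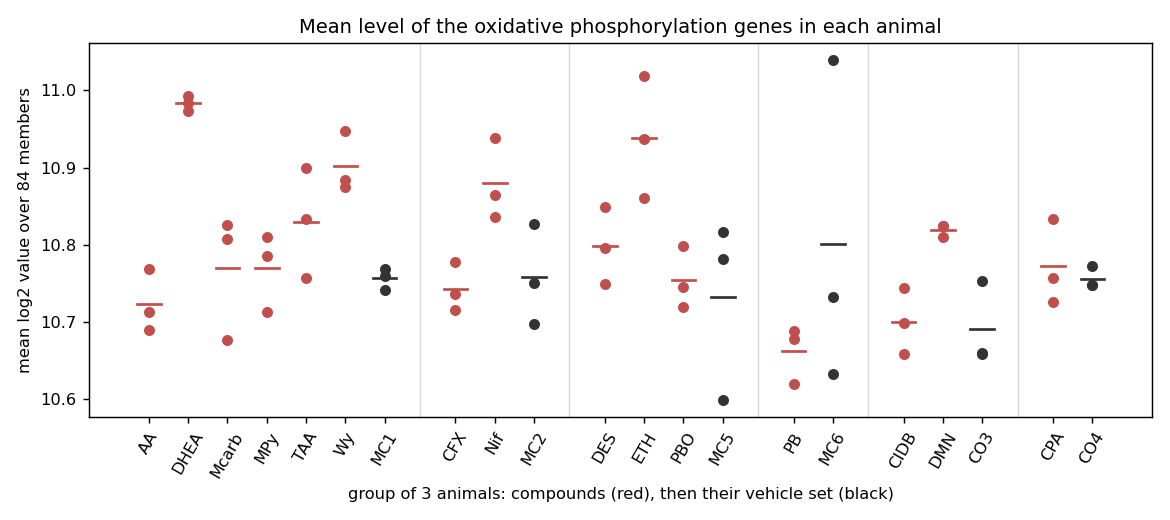
Mean log2 level over the 84 genes in each animal (points) with the mean of its group (bar), compounds in red and the vehicle set they share in black. The 3 DHEA animals lie between 10.973 and 10.993, above MC1 at 10.741 to 10.769, while MC6 animal 1 lies at 11.039, above the PB animals at 10.620 to 10.688.

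The mean over the 84 genes was also read in single animals. It was 10.973 to 10.993 in the 3 DHEA animals and 10.875 to 10.948 in the 3 Wy animals, against 10.741 to 10.769 in MC1, so that both groups lay clear of their controls. With ETH it was 10.861 to 11.019, against 10.599 to 10.816 in MC5, where animal 8 was the lowest of the 3. With Nif it was 10.836 to 10.939, against 10.697 to 10.827 in MC2, and with DMN it was 10.810 to 10.824, against 10.659 to 10.753 in CO3. These groups also did not overlap, though the gap for Nif was narrow.

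DHEA is a steroid precursor and Wy is an agonist of the nuclear receptor PPARα, and both are known as peroxisome proliferators in rodents. They shared the vehicle animals of MC1, so their differences from it are not independent of each other. Complex I had the largest single change with both compounds. Ndufa3, an accessory subunit of complex I, was at 12.57, 12.83 and 12.96 in DHEA animals and at 12.38, 13.40 and 13.00 in Wy animals, against 11.69, 11.70 and 11.73 in MC1. Every treated animal was above every control animal by a wide margin, and Wy animal 1 was the lowest of the treated. The log2 difference was 1.08 ± 0.12 with DHEA (SE, limma adjusted p = 1.34e-09) and 1.21 ± 0.12 with Wy (adjusted p = 5.28e-11), which is 2.11-fold and 2.32-fold.

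Of the 6 core subunits of complex I, which carry its electron path, 4 rose with DHEA and 2 with Wy. Ndufs1, the subunit with several of the iron-sulfur clusters, was at 10.24, 10.02 and 10.29 with DHEA and at 9.74, 10.14 and 10.05 with Wy, against 9.60, 9.55 and 9.44 in MC1. Neither treated group overlapped the controls, although Wy animal 1 lay close to them. The differences were 0.65 ± 0.10 with DHEA (adjusted p = 1.34e-06) and 0.45 ± 0.10 with Wy (adjusted p = 0.000723). Ndufs3, another core subunit, averaged 11.20 ± 0.05 with DHEA and 10.77 ± 0.05 in MC1 (SD, n = 3 each), a difference of 0.43 ± 0.10 (limma adjusted p = 0.00108).

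Of the 28 accessory subunits of complex I, 9 rose with DHEA and 6 with Wy. Ndufc1 was at 12.11, 12.03 and 12.11 with DHEA and at 11.81, 12.13 and 11.97 with Wy, against 11.53, 11.53 and 11.56 in MC1. All 6 treated animals lay above the 3 controls, by 0.54 ± 0.08 with DHEA (adjusted p = 1.99e-06) and 0.43 ± 0.08 with Wy (adjusted p = 0.000147). Ndufab1, the mitochondrial acyl carrier protein that is also a subunit of complex I, was at 11.89, 11.92 and 11.89 with DHEA and at 11.77, 12.03 and 11.93 with Wy, against 11.35, 11.37 and 11.43 in MC1, again without overlap. Ndufa7, a further accessory subunit, was at 11.86, 11.97 and 11.77 with Wy, against 11.43, 11.40 and 11.46 in MC1, a difference of 0.43 ± 0.11 (adjusted p = 0.00497).

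In complex III the larger subunits rose. Uqcrfs1, the Rieske iron-sulfur protein, was at 12.37, 12.32 and 12.39 with DHEA and at 12.19, 12.16 and 12.11 with Wy, against 11.77, 11.70 and 11.83 in MC1. The 3 groups did not overlap one another, with DHEA highest and MC1 lowest, and the differences from MC1 were 0.59 ± 0.09 with DHEA (adjusted p = 1.93e-06) and 0.38 ± 0.09 with Wy (adjusted p = 0.00163). The core proteins Uqcrc1 and Uqcrc2 rose by 0.50 ± 0.07 and 0.40 ± 0.10 with DHEA and by 0.35 ± 0.07 and 0.43 ± 0.10 with Wy. Of the small subunits Uqcr10, Uqcr11 and Uqcrh, none was called with any compound.

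In complex IV, 6 of the 11 broadly expressed subunits rose with DHEA and 3 with Wy. Cox8a was at 13.20, 13.11 and 13.32 with DHEA and at 12.76, 13.05 and 12.99 with Wy, against 12.69, 12.76 and 12.63 in MC1. DHEA lay clear of the controls, by 0.51 ± 0.07 (adjusted p = 7.96e-08), while the lowest Wy animal reached the level of the highest control, at a difference of 0.24 ± 0.07 (adjusted p = 0.00922). Cox6a1 was at 12.00, 12.05 and 11.95 with DHEA, against 11.54, 11.53 and 11.56 in MC1. Cox4i1, the main form of subunit 4, rose by 0.33 ± 0.08 with DHEA.

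In complex V, both catalytic subunits rose with DHEA and 1 of them with Wy. Atp5f1b, the catalytic β subunit, was at 13.54, 13.48 and 13.56 with DHEA, against 13.17, 13.15 and 13.11 in MC1, a rise of 0.38 ± 0.07 (adjusted p = 4.9e-05). With Wy it was at 13.21, 13.36 and 13.32, a difference of 0.15 ± 0.07 from MC1 that did not pass (adjusted p = 0.154). The α subunit Atp5f1a rose with both, by 0.16 ± 0.06 with DHEA, whose animals overlapped the controls, and by 0.22 ± 0.06 with Wy, whose animals did not. Atp5f1d, the δ subunit, was at 11.80, 11.82 and 11.84 with DHEA, against 11.36, 11.30 and 11.35 in MC1.

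A direct comparison of DHEA with Wy in the same limma fit, in which the shared MC1 animals play no part, called 5 of the 84 genes, all higher with DHEA, where 8% of all genes were called in either direction. They were Ndufv2 (0.42 ± 0.09, adjusted p = 0.00182), a core flavoprotein subunit of complex I, Atp5po (0.42 ± 0.12, adjusted p = 0.0259), the stalk subunit of ATP synthase that confers sensitivity to oligomycin, Ndufa6 (0.40 ± 0.12, adjusted p = 0.0275), Cox8a (0.27 ± 0.07, adjusted p = 0.00599) and Atp5f1b (0.23 ± 0.07, adjusted p = 0.0293). Ndufv2 was at 11.72, 11.50 and 11.82 with DHEA and at 11.27, 11.34 and 11.20 with Wy. For Ndufa3 the difference was -0.14 ± 0.12 (adjusted p = 0.54), with overlapping animals. The doses and times of these compounds differed (14 days and 3 days), so these values are not a comparison at matched exposure.

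Complex II gave 1 call with DHEA and none with Wy or ETH. With DHEA its iron-sulfur subunit Sdhb was at 12.50, 12.52 and 12.50, against 12.15, 12.21 and 12.29 in MC1, a rise of 0.29 ± 0.08 (adjusted p = 0.00544). The flavoprotein subunit Sdha differed by 0.05 ± 0.07 (adjusted p = 0.67) and the anchor subunit Sdhc by 0.10 ± 0.09 (adjusted p = 0.466). Sdhd, the other anchor subunit, differed by 0.16 with DHEA in the probe set used here and by 0.30 in its second probe set.

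Markers of other cells moved as well in these livers. Of 8 macrophage markers 6 were called lower with DHEA and 5 with Wy, and their mean log2 level per animal was 8.71 to 9.13 with DHEA and 8.74 to 8.99 with Wy, against 9.49 to 9.74 in MC1. The mean of 9 hepatocyte markers was 13.26 to 13.35 with DHEA and 13.20 to 13.31 with Wy, against 13.39 to 13.41 in MC1, with 4 called lower and 2 higher with DHEA and 5 called lower with Wy. Of 10 stellate cell and matrix markers 4 were called lower with DHEA and 2 with Wy, at means of 7.19 to 7.38 and 7.42 to 7.61, against 7.69 to 7.78 in MC1, and of 4 endothelial markers 2 were called lower with each. The part of cell composition in the results of the 84 genes was not tested.

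**Figure D3:**
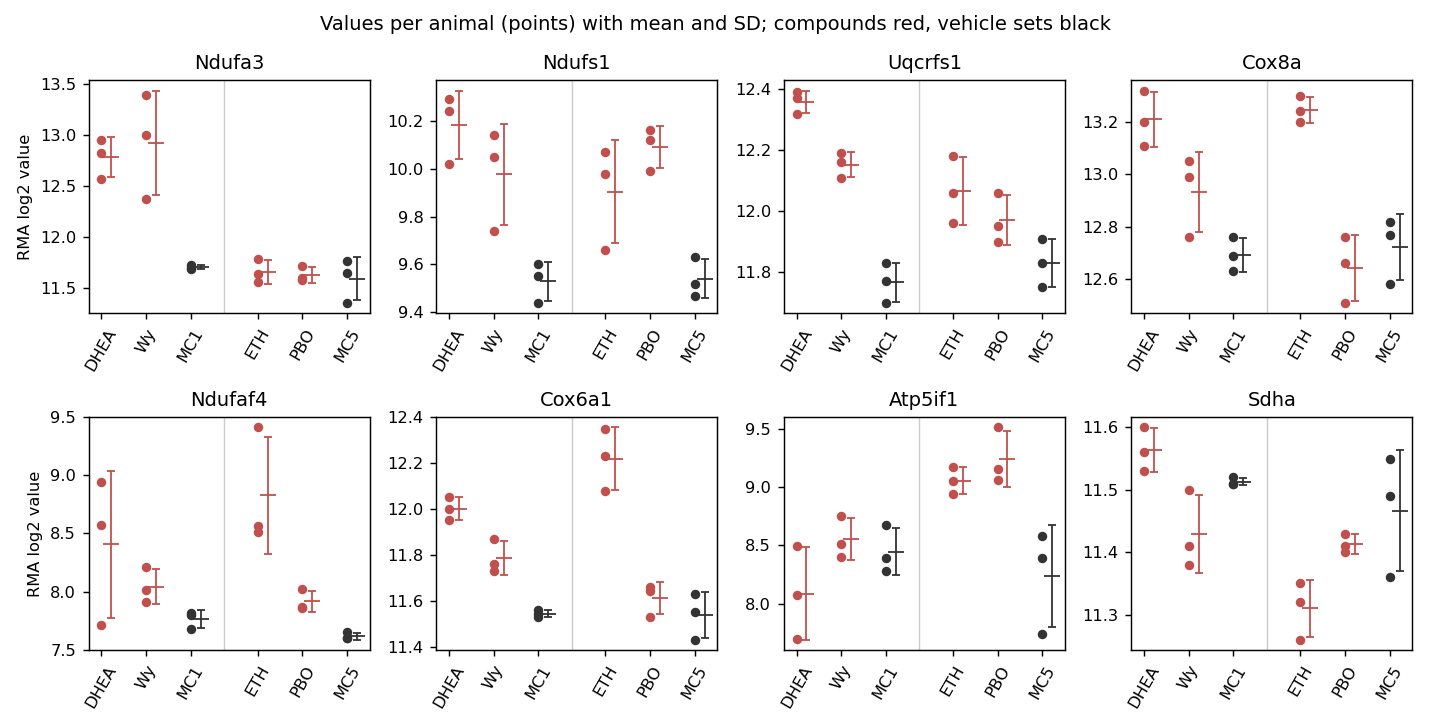
RMA log2 values of 8 genes in each animal (points) with mean and SD, for DHEA, Wy and their vehicle set MC1, and for ETH, PBO and their vehicle set MC5. The vertical scale differs by panel and does not start at 0. Of the groups shown, Ndufa3 is high in DHEA and Wy, Ndufaf4 and Cox6a1 are highest in ETH, and Sdha lies between 11.26 and 11.60 throughout.

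ETH, the ethyl analog of methionine, moved genes of complexes I, III, IV and V. The largest difference was in Ndufaf4, an assembly factor of complex I, which was at 8.51, 9.41 and 8.56 with ETH, against 7.60, 7.65 and 7.60 in MC5. All ETH animals lay above the controls, and animal 2 was much higher than the others, for a difference of 1.21 ± 0.20 (limma adjusted p = 5.39e-06). With DHEA the same gene was at 7.71, 8.57 and 8.94, against 7.82, 7.80 and 7.68 in MC1, which passed the test (0.64 ± 0.20, adjusted p = 0.0192) although the lowest DHEA animal lay among the controls. The assembly factors Ndufaf8 and Ndufaf3 also rose with ETH, by 0.62 ± 0.12 and 0.39 ± 0.10, while Ndufaf5 and Ndufaf7 were not called with any compound.

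In complex IV, 10 of the 11 broadly expressed subunits rose with ETH. Cox6a1 was at 12.08, 12.35 and 12.23 with ETH, against 11.55, 11.43 and 11.63 in MC5, and Cox8a was at 13.20, 13.24 and 13.30, against 12.82, 12.58 and 12.77. Neither gene's groups overlapped, and the differences were 0.68 ± 0.08 (adjusted p = 1.01e-08) and 0.52 ± 0.07 (adjusted p = 2.84e-08). Cox6c rose by 0.43 ± 0.08, and MC5 was its lowest methylcellulose set, at a mean of 12.33, against 12.54 in MC1, 12.45 in MC2 and 12.58 in MC6. The isoform Cox4i2 fell, by 0.25 on the log2 scale (SE 0.09, adjusted p = 0.0259), and was at 6.80, 6.66 and 6.79 with ETH, against 6.97, 7.05 and 6.99 in MC5.

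In complex V, 9 of the 13 non-catalytic subunits rose with ETH, while neither of the 2 catalytic ones did. Atp5mpl, a small subunit of the membrane part, was at 11.03, 11.44 and 10.99, against 10.60, 10.36 and 10.60 in MC5 (0.64 ± 0.10, adjusted p = 2.96e-06). Atp5mk, also of the membrane part, rose by 0.53 ± 0.11. MC5 was the lowest methylcellulose set in Atp5mk, at a mean of 11.31, against 11.55 in MC1, 11.61 in MC2 and 11.63 in MC6. For Atp5mpl the means were 10.52 in MC5, against 10.69, 10.64 and 10.79 in these sets. Atp5f1a averaged 12.80 ± 0.09 with ETH and 12.91 ± 0.12 in MC5 (SD, n = 3 each), and Atp5f1b averaged 13.21 ± 0.09 and 13.23 ± 0.18, neither of which passed the limma test (adjusted p = 0.185 and 0.833).

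Complex I was split with ETH, with 13 of its 39 genes higher and 3 lower. Ndufab1 was at 12.15, 12.14 and 12.17, against 11.58, 11.14 and 11.42 in MC5 (0.78 ± 0.10, adjusted p = 2.92e-08), and Ndufc2 rose by 0.55 ± 0.09. The accessory subunits Ndufa11 and Ndufb4 fell, by 0.43 and 0.38 on the log2 scale. Ndufa11 was at 10.83, 11.05 and 10.91 with ETH, against 11.54, 11.12 and 11.42 in MC5, and Ndufb4 was at 11.06, 11.16 and 11.09, against 11.52, 11.28 and 11.64, so that all treated animals lay below all controls in both. Ndufa6 also fell, by 0.43, with overlapping animals.

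The count with ETH depended on vehicle animal MC5 8, without which 25 genes were called (22 higher, 3 lower) and the median difference over the 84 genes was 0.13. All 8 macrophage markers were called higher with ETH, at a mean log2 level of 10.31 to 10.34 per animal, against 8.77 to 9.39 in MC5, while the hepatocyte markers were at 13.39 to 13.51, against 13.27 to 13.41. Of 7 biliary and progenitor markers 3 were called higher with ETH, at a mean of 6.91 to 7.16, against 6.66 to 6.69 in MC5, with Krt19 at a difference of 1.90 ± 0.27 (adjusted p = 2.35e-07), and of 5 erythroid markers 2 were called lower, at 8.80 to 9.43, against 9.54 to 9.95. The part of these cells in the result was not tested.

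**Figure D4:**
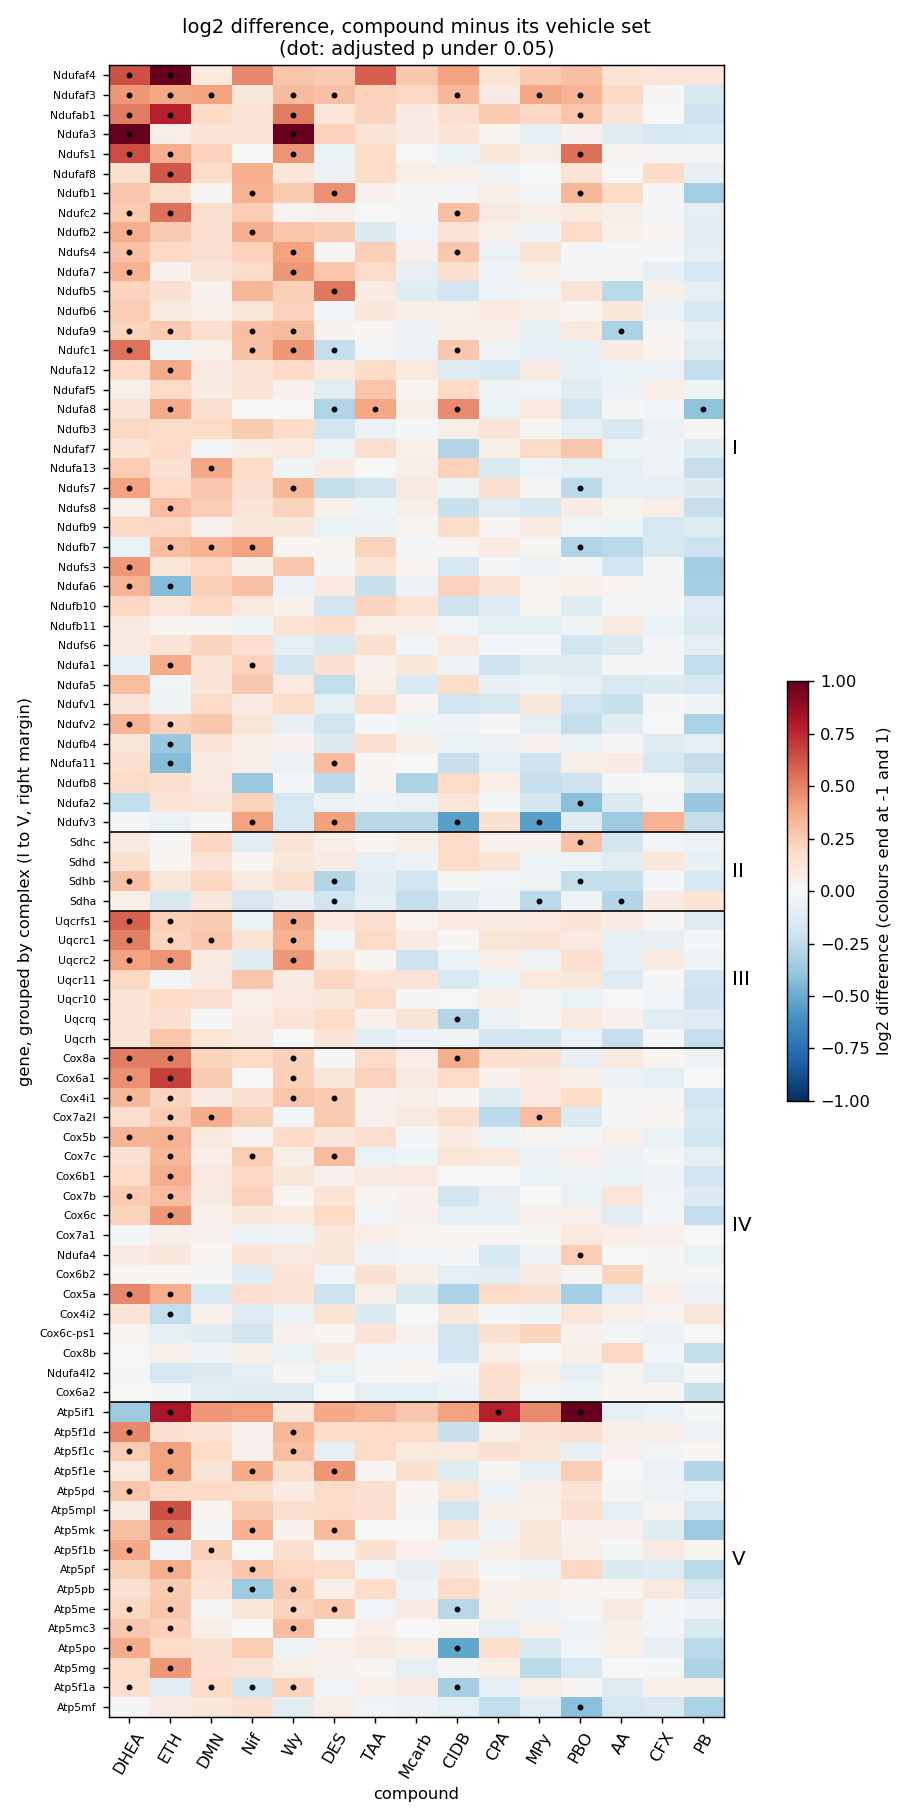
Log2 difference between each compound and its vehicle set (colour, ending at -1 and 1) for the 84 genes, grouped by complex and sorted within it by their mean difference, with dots for adjusted p under 0.05. The compounds run from the highest median difference on the left (DHEA, 0.21) to the lowest on the right (PB, -0.14), and the dots are densest in the DHEA, ETH and Wy columns.

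DES, a synthetic oestrogen, and PBO, an insecticide synergist that acts on cytochrome P450 enzymes, shared vehicle set MC5 with ETH and moved genes in both directions. With DES the highest called genes were Ndufb5 (0.53 ± 0.13) and Ndufb1 (0.46 ± 0.11), accessory subunits of complex I, and Atp5f1e (0.43 ± 0.10), the ε subunit of ATP synthase. Atp5f1e was at 12.55, 12.47 and 12.67 with DES, against 12.30, 11.98 and 12.13 in MC5. MC5 was the lowest methylcellulose set in this gene, at a mean of 12.14, against 12.39 in MC1, 12.40 in MC2 and 12.35 in MC6. For Ndufb5 the means were 11.06 in MC5, against 11.31, 11.21 and 11.35 in these sets. Both subunits of the catalytic part of complex II fell with DES, Sdhb by 0.29 and Sdha by 0.20, and Sdhb was at 12.07, 11.82 and 11.95, against 12.26, 12.10 and 12.33, with all treated animals below all controls. With all methylcellulose sets pooled as the control, Sdha differed by -0.12 and Ndufb1 by 0.18 with DES, and neither passed. The number of genes called with DES was 7 without DES animal 2 and 9 without DES animal 3.

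With PBO the largest difference was in Atp5if1, the inhibitory factor that blocks ATP hydrolysis by complex V. It was at 9.51, 9.15 and 9.06 with PBO and at 8.94, 9.17 and 9.05 with ETH, against 8.58, 7.74 and 8.39 in MC5, which gave differences of 1.00 ± 0.18 with PBO (limma adjusted p = 5.5e-05) and 0.82 ± 0.18 with ETH (adjusted p = 0.000426). With CPA, a steroidal antiandrogen, it was the only gene of the 84 that was called, at 9.09, 8.82 and 8.96, against 8.08, 8.35 and 8.10 in CO4 (0.78 ± 0.18, adjusted p = 0.00347), in livers in which 6 of the 8 macrophage markers were also called lower. The animals of these 3 compounds did not overlap their controls, and MC5 animal 8 was the lowest of its set. With DHEA it went the other way without passing, at 8.07, 8.49 and 7.70, against 8.39, 8.28 and 8.67 in MC1 (-0.36 ± 0.18, adjusted p = 0.171). The gene had 3 probe sets, and the other 2 differed by 0.14 and 0.27 with DHEA, so that its direction there is not settled.

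PBO also raised Ndufs1, which was at 10.16, 10.12 and 9.99, against 9.52, 9.63 and 9.47 in MC5 (0.55 ± 0.10, adjusted p = 3.68e-05), and Sdhc by 0.29 ± 0.09, the only call of this gene with any compound. It lowered Atp5mf and Ndufa2, each by 0.42, and Sdhb by 0.24 on the log2 scale. Atp5mf, a membrane subunit of ATP synthase, was at 11.41, 11.34 and 11.47 with PBO, against 11.98, 11.65 and 11.84. Without PBO animal 1 the number of called genes was 7.

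The genotoxic compounds CIDB, an azo dye, and DMN, an alkylating nitrosamine, shared vehicle set CO3. With CIDB Ndufa8, an accessory subunit of complex I, was at 11.27, 11.46 and 11.23, against 10.95, 10.87 and 10.72 (0.47 ± 0.11, adjusted p = 0.00159), and Cox8a was at 12.93, 12.94 and 12.93, against 12.60, 12.57 and 12.56 (0.36 ± 0.07, adjusted p = 0.000105). Genes of complexes I and V also fell with CIDB, namely Ndufv3 by 0.54, Atp5po by 0.52 and Atp5f1a by 0.33. Atp5f1a was at 12.53, 12.44 and 12.56, against 12.84, 12.86 and 12.81 in CO3, a clear gap for so small a change. Uqcrq of complex III fell by 0.29 on the log2 scale. Macrophage markers were at a mean of 9.51 to 9.77 per animal with CIDB and 9.71 to 9.99 with DMN, against 8.82 to 9.38 in CO3, with 4 and 3 of the 8 called higher. All 5 erythroid markers were called lower with CIDB, at a mean of 7.75 to 7.89 per animal, against 9.75 to 10.2 in CO3. The part of these cells in the results was not tested.

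With DMN, 75 of the 84 differences were positive and 34 genes had all 3 treated animals above all controls, where 13.4% of all genes did. The called ones were led by Ndufaf3 (0.40 ± 0.10), Ndufa13 (0.38 ± 0.10), an accessory subunit of complex I also known as GRIM-19, Cox7a2l (0.37 ± 0.09), a factor of respiratory supercomplexes, and Ndufb7 (0.35 ± 0.10). Both catalytic subunits of complex V were called, and Atp5f1b was at 13.34, 13.35 and 13.32, against 13.14, 13.15 and 13.00 in CO3. This count was fragile in both directions, since 0 genes were called without CO3 animal 6, 1 without CO3 animal 5 or DMN animal 2, and 2 without DMN animal 1 or DMN animal 3, while array weights gave 39. How many of all genes were called under these settings was not counted. Set against CO4, CO3 had a median difference of -0.07 over the 84 genes, where it was -0.02 over all genes. None of the 84 was called between these sets. In 20 of the 84 genes all CO3 animals lay below all CO4 animals, and the share of all genes that did was not counted. Whether this bears on the DMN values was not tested.

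Of the non-carcinogens, the calcium channel blocker Nif gave 13 calls and the cephalosporin CFX 0. With Nif Ndufb7 was at 10.81, 10.96 and 10.80, against 10.31, 10.55 and 10.52 in MC2 (0.40 ± 0.10, adjusted p = 0.00864), and Atp5f1e was at 12.76, 12.80 and 12.77, against 12.36, 12.46 and 12.38 (0.37 ± 0.10, adjusted p = 0.0103). Ndufv3 and Ndufb2 rose by 0.40 ± 0.12 and 0.36 ± 0.11. Ndufv3 averaged 11.49 with Nif and 11.09 in MC2, while the other methylcellulose sets MC1, MC5 and MC6 averaged 11.42, 11.28 and 11.41. Atp5pb, the b subunit of the ATP synthase stalk, fell by 0.36 on the log2 scale, at 12.45, 12.37 and 12.31, against 12.66, 12.89 and 12.64. The total was 2 without MC2 animal 10 or Nif animal 2, 8 without MC2 animal 11, 5 without MC2 animal 12 and 6 without Nif animal 1. With CFX the lowest unadjusted p values belonged to Ndufv3 (0.35 ± 0.12) and Ndufb9 (-0.17 ± 0.08), both at an adjusted p of 1.

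PB, a barbiturate and a classic inducer of liver cytochrome P450 enzymes, had a negative median difference, -0.14, and 9 of the 84 differences were positive. The single call was Ndufa8, at 10.42, 10.54 and 10.52, against 11.24, 10.71 and 10.74 in MC6 (-0.40 ± 0.11, adjusted p = 0.0454). These values rested on MC6 animal 1. Without it 0 genes were called and the median was -0.02, without MC6 animal 2 there were 13 calls and without MC6 animal 3 there were 7, and without both MC6 animals 1 and 3 there were 0 with a median of 0.04.

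With AA, MPy, TAA and Mcarb, which shared MC1, calls were few and Sdha recurred among them. Sdha was at 11.22, 11.12 and 11.33 with AA (adjusted p = 0.0065) and at 11.29, 11.26 and 11.19 with MPy (adjusted p = 0.00941), against 11.51, 11.51 and 11.52 in MC1. With Mcarb it was at 11.37, 11.25 and 11.19, a difference of -0.24 ± 0.07 that missed the threshold (adjusted p = 0.0626), and Sdhb differed by -0.20 ± 0.08 (adjusted p = 0.266). The 3 MC1 animals lay within 0.01 of each other in Sdha, while limma judged the differences by a spread pooled over all groups. MC1 was the highest methylcellulose set in Sdha, at a mean of 11.51, against 11.38 in MC2, 11.47 in MC5 and 11.20 in MC6. Between the vehicle sets MC1 and MC6 this gene was itself called, at 0.31 ± 0.07 (limma adjusted p = 0.00329). With all methylcellulose vehicle sets pooled as the control the differences were -0.17 with AA and -0.14 with MPy, and neither passed. AA also lowered Ndufa9 (-0.32 ± 0.08, adjusted p = 0.00767). MPy, an antihistamine, lowered Ndufv3 (-0.54 ± 0.12) and raised Ndufaf3 and Cox7a2l, by 0.38 ± 0.10 and 0.31 ± 0.09, and TAA, a thioamide that injures the liver, raised Ndufa8 (0.39 ± 0.11, adjusted p = 0.0208). The number of calls was 1 for AA without AA animal 3 or MC1 animal 6, 2 for MPy without MPy animal 3, and 0 for TAA without any 1 of MC1 animals 4, 5 and 6 and TAA animals 2 and 3. It was 2 for CPA without CPA animal 3 and 1 for Mcarb without Mcarb animal 1.

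Read gene by gene over the 15 compounds, 57 of the 84 genes rose with at least 1 compound, 19 fell with at least 1, 13 did both, and 21 were called with none. The same counts were not made over all genes, so they say nothing about the 84 genes as a group. Ndufaf3, an assembly factor of complex I, was called with the most compounds, rising with 8, namely DHEA (0.43), DMN (0.40), ETH (0.39), MPy (0.38), PBO (0.34), CIDB (0.33), Wy (0.32) and DES (0.29), each with an SE of 0.10. It was at 9.45, 9.50 and 9.64 with DHEA and at 9.37, 9.47 and 9.41 with Wy, against 9.11, 9.04 and 9.15 in MC1. Next came Atp5me, Ndufc1, Ndufa9, Ndufa8 and Atp5f1a, each called with 5 compounds. Atp5f1a went in both directions, higher with DHEA, DMN and Wy and lower with CIDB and Nif. Compounds that share a vehicle set share its error, so these numbers are not counts of independent results.

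The 21 genes called with no compound included Ndufv1, the flavoprotein that accepts electrons from NADH, Sdhd, the accessory subunits Ndufa5, Ndufb3, Ndufb6, Ndufb8, Ndufb9, Ndufb10 and Ndufb11, and Ndufs6. They also included Cox6a2, Cox7a1 and Cox8b, isoforms of complex IV found mainly in heart and skeletal muscle, Cox6b2, known from testis, Ndufa4l2 and the pseudogene Cox6c-ps1. Over the 63 arrays Cox6a2 ran from 6.20 to 7.39, Cox7a1 from 7.29 to 7.73 and Cox8b from 5.46 to 6.22, and all 3 had their highest value in MC6 animal 3, the array with the muscle transcripts. The broadly expressed counterparts Cox6a1 (11.29 to 12.35) and Cox8a (12.51 to 13.32) were highest in ETH animal 2 and DHEA animal 3. Cox4i1 rose with 4 compounds and fell with 0, while Cox4i2 rose with 0 and fell with 1. Of the subunit c genes, Atp5mc3 alone had a probe set with a single symbol, and it rose with 3 compounds.

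Some genes had further probe sets that told another story. For Sdhd, the second probe set was called higher with 1 compound and lower with 1, while the one used here was called with none. For Ndufv3, the second probe set, of weaker signal, was called higher with 2 compounds and lower with 0. The one used here was called higher with 2 and lower with 2, namely CIDB and MPy. With Wy the second differed by 0.44, where the one used here differed by -0.16. For Atp5me the second was not called with any compound. The values given above are those of the strongest probe set.

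Vehicle sets of the same vehicle were compared with each other in the same way, as a measure of what differs between animals that received no compound. None of the 84 genes was called between MC1 and MC2, MC1 and MC5, MC2 and MC6 or CO3 and CO4, where 0.797%, 1.97%, 1.85% and 0.307% of all genes were called in either direction (at an unadjusted p under 0.05 the limma fit gave 5, 15, 11 and 9). Shares of all genes under the unadjusted threshold were not counted, so those numbers say nothing about the 84 genes as a group. There was 1 call between MC1 and MC6 (background 7.33%), namely Sdha (0.31 ± 0.07, MC1 minus MC6). Between MC2 and MC5 there was 1 (background 2.32%). Between MC5 and MC6 there were 10 (background 10.3%), 4 of them higher and 6 lower in MC5. Among the last were Ndufb1 (-0.51 ± 0.11, MC5 minus MC6), Ndufa1 (-0.32 ± 0.08) and Sdha (0.27 ± 0.07). The labels tell the sets apart by number only, and the source of these differences was not tested.

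The classes of the study were compared with the compound as the unit, over 8 NGC, 2 GC and 2 NC compounds. None of the 84 genes was called by limma for NGC against NC (background 0.0192%), GC against NC (0%), NGC against GC (0.115%) or all carcinogens against NC (0.0192%), and 1, 2, 7 and 1 genes had an unadjusted p under 0.05. Shares of all genes under that unadjusted threshold were not counted. The lowest adjusted p for NGC against NC belonged to Ndufv3, whose mean log2 difference from vehicle was 0.52 lower in the NGC compounds (-0.52 ± 0.20, adjusted p = 0.371). For NGC against GC it belonged to Ndufa13 (-0.29 ± 0.11, adjusted p = 0.333). Both NC compounds shared MC2 and both GC compounds shared CO3, so that class and vehicle set cannot be told apart, and this few compounds would show only large differences.

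**Figure D5:**
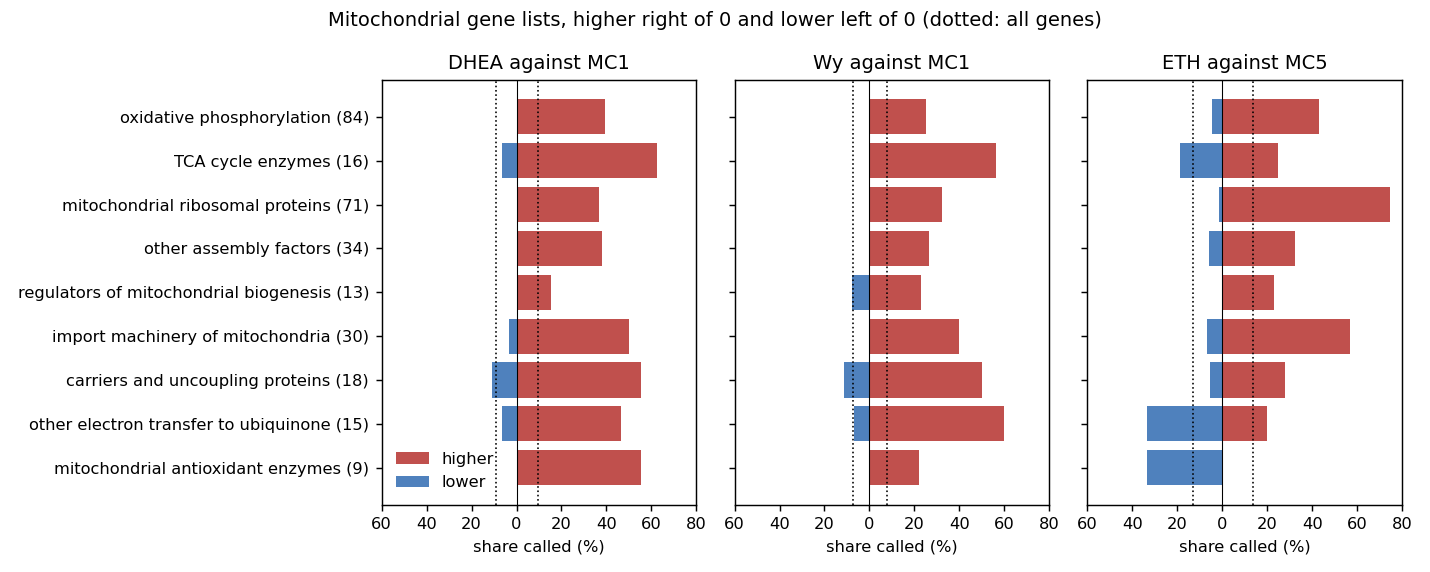
Share of each mitochondrial gene list called higher (red, right of 0) or lower (blue, left of 0) in percent, for DHEA, Wy and ETH against their vehicle sets, with the number of genes measured in brackets and dotted lines for all genes. The mitochondrial ribosomal proteins reach their highest share in ETH, with 53 of 71 higher, and the TCA cycle enzymes in DHEA, with 10 of 16.

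Other mitochondrial genes moved beside those of oxidative phosphorylation. Over all genes, 13.6% rose and 13.1% fell with ETH, 9.78% and 9.35% with DHEA, and 7.67% and 7.38% with Wy. Of 71 mitochondrial ribosomal proteins, 53 rose and 1 fell with ETH, 26 rose and 0 fell with DHEA, and 23 rose and 0 fell with Wy, with median log2 differences of 0.50, 0.21 and 0.17. Mrps18b, a protein of the small subunit, rose by 1.65 ± 0.09 with ETH (adjusted p = 1.08e-19), 0.82 ± 0.09 with DHEA and 0.50 ± 0.09 with Wy. The number of called ribosomal genes with Wy was 14 without MC1 animal 5 and 9 without Wy animal 2.

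Of 30 genes of protein import, 17 rose and 2 fell with ETH, 15 rose and 1 fell with DHEA, and 12 rose and 0 fell with Wy. The chaperonin Hspd1 rose with all 3, by 0.48 ± 0.10 with ETH, 0.80 ± 0.10 with DHEA and 0.76 ± 0.10 with Wy. Timm17a, a subunit of the inner membrane translocase, rose by 0.98 ± 0.09 with ETH and 0.48 ± 0.09 with DHEA. Without DHEA animal 3 the DHEA count of import genes was 10. Of 34 further assembly factors of the chain, 11 rose and 2 fell with ETH, 13 rose and 0 fell with DHEA, and 9 rose and 0 fell with Wy, and Lrpprc, an RNA-binding protein that stabilizes mitochondrial mRNA, rose by 1.78 ± 0.14 with ETH, against 0.44 ± 0.14 with DHEA and 0.78 ± 0.14 with Wy.

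The lists on the substrate side of the chain had calls in both directions with ETH, where 13.6% of all genes rose and 13.1% fell. Of 16 enzymes of the TCA cycle and its supply, 10 rose and 1 fell with DHEA (9.78% and 9.35% of all genes did). With Wy 9 rose and 0 fell (7.67% and 7.38%), and with ETH 4 rose and 3 fell. The medians were 0.31, 0.36 and 0.01. Ogdh, the 2-oxoglutarate dehydrogenase, averaged 10.39 with DHEA and 10.30 with Wy, against 9.77 in MC1, and 9.59 with ETH, against 9.75 in MC5. Pc, pyruvate carboxylase, fell by 1.33 on the log2 scale with ETH (SE 0.11, adjusted p = 4.49e-13). Of 15 genes that bring electrons to ubiquinone by other routes, 7 rose and 1 fell with DHEA, 9 rose and 1 fell with Wy, and 3 rose and 5 fell with ETH. In both lists the ETH counts lay within a few genes of what the shares of all genes give. Etfdh, which feeds electrons from fatty acid oxidation into ubiquinone, rose by 0.60 with DHEA and 0.67 with Wy and fell by 0.76 with ETH, while Prodh, proline dehydrogenase, fell with 9 compounds, by 1.05 with DHEA, 1.44 with Wy and 1.5 with ETH. Whether ETH differs from DHEA or Wy in these genes was not tested. Of 9 mitochondrial antioxidant enzymes, 5 rose with DHEA (9.78% of all genes did), 2 rose with Wy (7.67%) and 3 fell with ETH (13.1%), the counts for Wy and ETH being within a few genes of what those shares give.

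Of 13 measured regulators of mitochondrial biogenesis, 2 rose with DHEA (9.78% of all genes did), 3 rose and 1 fell with Wy (7.67% and 7.38%), and 3 rose with ETH (13.6%), counts within a few genes of what those shares give. Tfam, which packages and transcribes mitochondrial DNA, rose by 0.50 ± 0.14 with DHEA (adjusted p = 0.00827) and 0.44 ± 0.14 with Wy (adjusted p = 0.025), and with ETH it differed by 0.28 ± 0.14 (adjusted p = 0.147). Esrra, a nuclear receptor that drives oxidative genes, rose by 0.30 ± 0.09 with ETH (adjusted p = 0.00671) and differed by 0.02 with DHEA and 0.03 with Wy. Ppargc1a, the coactivator PGC-1α, averaged 4.72 with DHEA and 4.71 with Wy, against 4.68 in MC1, and 4.72 with ETH, against 4.76 in MC5, and was not called. These levels lay near the lowest value on the arrays, 3.959, where the median gene was at 7.87. The lack of a call therefore says little about Ppargc1a. The uncoupling protein gene Ucp2 rose by 0.79 with Wy (adjusted p = 0.000642).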

How the data were processed

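Liver RNA of 63 rats was hybridised to Affymetrix RAE230A arrays. The matrix deposited by the authors holds log2 levels for 15866 probe sets. It was made from CEL files of the MAS 5 software by RMA (background correction, quantile normalization and summarization) from the affy package, whose version is not given in the sources used here. RMA makes arrays share 1 distribution, so a shift common to most genes would not be visible. Value columns without a sample numbered 0, as did pairs of identical arrays. Of the probe sets, 12783 carried 1 symbol, 312 carried more and 2771 carried none.

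All 63 arrays were fitted with 1 mean for each of 21 groups in limma 3.58.1 (R 4.3.3, package data.table at version 1.17.8), with 42 residual and 4.81 prior degrees of freedom, a median residual SD of 0.117 log2 and no covariate. The median SE of a difference among the 84 genes was 0.0931. Calls were made at an adjusted p of 0.05 (Benjamini-Hochberg, all probe sets). Class contrasts used 1 mean difference per compound. With 3 animals a group, the smallest exact permutation p is 0.1, so such tests were not used. The code was tested on simulated data. Promoter motifs and figures were made with Python 3.11.15, numpy 2.4.6, pandas 2.3.3 and matplotlib 3.10.9. The number of arrays per group limits the precision.

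For each compound the text names up to 4 called genes at either end whose treated animals all lie on 1 side of all controls, or the 2 with the lowest p, further the 8 genes called with the most compounds, those called with none, isoform pairs, complex II, up to 4 genes of each other mitochondrial list and fixed regulators. Genes named beyond this rule (for example Ndufs3, Uqcrc1, Cox6c, Atp5mk, Timm17a, Ogdh and those of the direct comparison of DHEA with Wy) were chosen after their values were seen. The members, the gene lists and the tests were chosen with earlier results of these data known, and no gene list is independent evidence. The microRNA and protein measurements of the study were not used here. Alternatives were another set of samples in the fit, pooled controls, array weights, a second normalization, centring, a filter on dim probe sets, the mean over a gene's probe sets, a replicate block and leaving out each animal.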

Additional observations from a re-analysis of the deposited data

Results flagged for a closer look

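The rule on single symbols set aside 9 probe sets whose annotation lists several symbols of which 1 begins with a name of the rule, and signal appeared in them as well. Without naming a gene for any of them, limma called 6 of the 9 higher with ETH, 4 with DHEA, 2 with Wy and 2 with CIDB, and 1 each with AA, CPA, DMN and PBO. It called 1 lower with Mcarb and 1 lower with Nif. Of all genes, 13.6% were called higher with ETH, 9.78% with DHEA, 7.67% with Wy and 8.63% with CIDB. With AA, CPA, DMN and PBO these shares were 1.82%, 3.2%, 2.88% and 7.04%. Called lower were 0.25% of all genes with Mcarb and 2.95% with Nif. A count of 1 or 2 among 9 probe sets says little. The median log2 difference of the 9 probe sets was 0.39 with ETH and 0.21 with DHEA.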

How the results depend on the processing

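The DHEA count of 33 and the CIDB count of 11 were 23 to 28 and 8 to 11 when 1 animal was left out, and that of Wy (21) was 16 to 19. Leave-one-out ranges of the called genes were 1 to 2 for AA and CPA, 7 to 14 for DES, 0 to 7 for DMN, 25 to 41 for ETH, 0 to 1 for Mcarb and TAA, 2 to 4 for MPy, 2 to 10 for Nif, 0 to 13 for PB and 7 to 11 for PBO, 10 to 17 for import genes with DHEA and 9 to 22 for ribosomal genes with Wy, and between vehicle sets 0 to 3 (MC1 and MC5), 1 to 6 (MC1 and MC6), 0 to 4 (MC2 and MC5, MC2 and MC6) and 2 to 15 (MC5 and MC6). Fitted on the 6 arrays of a comparison alone, which leaves fewer animals for the spread, the counts were ETH 17, DMN 4, PBO 4, DES 2, TAA 2, AA 0, PB 0 and 0 for MC1 and MC6, MC2 and MC5, and MC5 and MC6. With controls pooled by vehicle they were Nif 30, CIDB 19, TAA 11, PB 6, CPA 3 and Mcarb 2, with a DMN median of 0.09. With MC6 left out of that pool, an alternative chosen after seeing the data, they were DHEA 52, Nif 34, Wy 34, PB 11, TAA 11, MPy 9, AA 7 and Mcarb 4. With array weights they were DMN 39, Nif 35, Wy 32, CIDB 29, TAA 9, AA 7, MPy 7, CPA 4 and PB 0, and 3 (MC1 and MC2), 5 (MC1 and MC6), 2 (MC2 and MC5), 2 (MC5 and MC6) and 12 (CO3 and CO4). Quantile normalization once more gave DES 25, CIDB 19, TAA 10, CPA 6, AA 4 and PB 4, medians of 0.16 (DHEA), 0.08 (DMN) and 0.08 (CPA), and 1 (MC1 and MC5), 2 (MC1 and MC6), 5 (MC2 and MC5) and 17 (MC5 and MC6). Centring each array gave AA 5 with a median of -0.05, DMN 4, Mcarb 1 and PB 0. Without dim probe sets TAA had 4, PB 3 and MC2 against MC5 3, and with the mean over a gene's probe sets MC2 against MC5 had 2 and MC2 against MC6 1. Without MC6 animals 1 and 3, also chosen after seeing the data, PB had 0 and a median of 0.04. How many of all genes were called under these settings was not counted, so these counts have no background to be read against. The cause of these changes was not tested.

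Replicate numbers are shared by compound and vehicle animals for PB and CPA only, and same-numbered animals did not deviate together (correlations of -0.15, -0.05 and -0.05 for PB, and -0.15, 0.17 and 0.07 for CPA). With the replicate number as a block the PB count was 0 and the CPA count 1. For the 61 named differences, 843 alternatives gave the same call in 701, a lost call in 138, a gained call in 4 and a turned direction in 0. Groups of 3 animals limit all of these counts.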
